A study of Homo sapiens with 28 samples.

Results

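The regions described here are the ends of autosomal protein-coding genes of 50 to 500 kb and the DNA that follows them. For each such gene in GENCODE release 44 (hg38), the stretch ran from 5 kb before to 10 kb after the annotated gene end, in the direction of transcription, and parts inside another protein-coding gene were left out. Of 19111 autosomal protein-coding genes, 6213 had this length. Some sequence was kept for 5493 of them, at least 8 kb for 4412 and all 15 kb for 3350, and for the remaining 720 nothing was kept because other protein-coding genes filled the stretch. Gene length, gene end and the neighbouring genes chose the members, and no peak value was used.

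The peaks came from ChIP-seq in U2OS, an osteosarcoma line. Antibodies to H3K36me2 were used on wild-type U2OS cells, on 2 unirradiated replicates and on 2 that had recovered for 3 h from 20 J/m2 of UV-C, each compared by the authors with pooled input DNA. The carboxy-terminal domain (CTD) of ASH1L, which holds its catalytic SET domain, was mapped through a Flag tag in ASH1L-/- U2OS cells transfected with the CTD, in 3 unirradiated replicates and in 3 collected 3 h after the same dose. Its controls were ASH1L-/- cells transfected with empty vector, compared replicate by replicate without UV and pooled at 3 h. The knockout cells were grown from single colonies and the CTD was expressed from a plasmid with a viral promoter, so that the CTD lists describe an overexpressed fragment in cells that lack the full-length protein. Each H3K36me2 list pools a single-end and a paired-end run of the same replicate, and the CTD samples have no paired-end run. Antibody, genotype, control and sequencing thus differ together between the assays and cannot be told apart. The 10 lists each held 500000 broad peaks and carry no read depth, and errors are therefore the spread between the labelled biological replicates.

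H3K36me2 is a mark placed by the NSD enzymes and by ASH1L, and it covers broad stretches of intergenic DNA and gene bodies. In transcribed genes SETD2, which travels with RNA polymerase II, converts H3K36 to the trimethylated form, mostly towards the 3′ part of the gene. At the gene end the transcript is cleaved behind a poly(A) signal, and the polymerase continues for some kilobases into the flank before it is released by the exonuclease XRN2.

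The sequence of the gene end is shown first because base composition moved with coverage at that point. Of 9 of the genes with the most covered stretches, the last 30 bases of SYNDIG1, ARMC9 and ENSG00000235007 held neither form of the poly(A) signal, those of SLC6A11 held ATTAAA and those of the other 5 held AATAAA. The last 30 bases of 4 of these 5 are shown because they carry the signal and do not stand for all 9, 5′ to 3′ on the gene strand, with the poly(A) signal AATAAA or ATTAAA in capitals. COBL, an actin nucleator, ends at chr7:51016212-51016241 (minus strand). DPF3, a subunit of the BAF chromatin remodeller, ends at chr14:72609034-72609063 (minus strand). SLC6A3, the dopamine transporter, ends at chr5:1392794-1392823 (minus strand), and MAP2K5, a kinase upstream of ERK5, at chr15:67807088-67807117 (plus strand).
COBL: gtgccacaAATAAAagaaaatcaaatctta
DPF3: tgtgtaaacaAATAAAaggctttaaaactc
SLC6A3: gcacAATAAAagacatccacaatggaaaaa
MAP2K5: gAATAAAagtattaatgctttgtgacagcc
AATAAA or ATTAAA stood on the gene strand in the last 50 bases of 4598 of the 6213 members (74.0%) and on the other strand in 13.9%. In 50 bases starting 1 kb further downstream the gene strand held either of them in 5.21% of members. AATAAA was present in 60.5% and ATTAAA in 17.7%, counting members with both under each. A match describes these letters and does not show that the site is used.

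Peaks also recurred at the same places of the downstream flank. Outside every annotated gene and outside chromosome 8, 2599 stretches of the flanks lay under a peak in all 4 H3K36me2 lists. In all 6 CTD lists 28 lay under a peak. Stretches were counted gene by gene, so a place shared by neighbouring flanks counts more than once. The number that would be shared by chance was not tested. The numbers of lists differ, so these counts were not compared by a test.

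CTD replicate 1 without UV and CTD replicate 3 at 3 h stood apart, with the highest coverage of GC-rich stretches among the CTD lists, and the CTD step and UV changes are given below with and without them.

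The first comparison asked how each assay changed from the last part of the gene to its flank. H3K36me2 peaks covered more of the flank than of the gene end in every list. In the 5 kb before the end they covered 11.1% and 11.2% of the kept bases in the 2 replicates without UV and 8.26% and 8.44% at 3 h. In the 10 kb after the end they covered 17.3% and 16.9% in the unirradiated replicates, and both replicates at 3 h had 13.8%. The flank was therefore covered 1.60 ± 0.0699 times as much as the gene end (SD, n = 4), a step of 0.67 ± 0.063 on the log2 scale. The flank was higher in 4 of 4 lists, and an exact two-sided sign-flip test over lists gave p = 0.13, the smallest value that 4 lists allow. Over all members the CTD showed no step of this size. Its peaks covered 16.1%, 12.4% and 10.4% of the gene end in the unirradiated replicates, and the replicates at 3 h had 12.8%, 11.8% and 15.2%. The flank was covered to 16.1%, 12.6% and 11% in the former and to 13.0%, 12.9% and 15.3% in the latter. The mean step of the CTD was 0.042 ± 0.050 (SD, n = 6), with 5 of 6 lists higher in the flank (exact sign-flip test, p = 0.0625). Leaving out the replicate at 3 h with the largest step lowered the mean to 0.025.

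**Figure D1:**
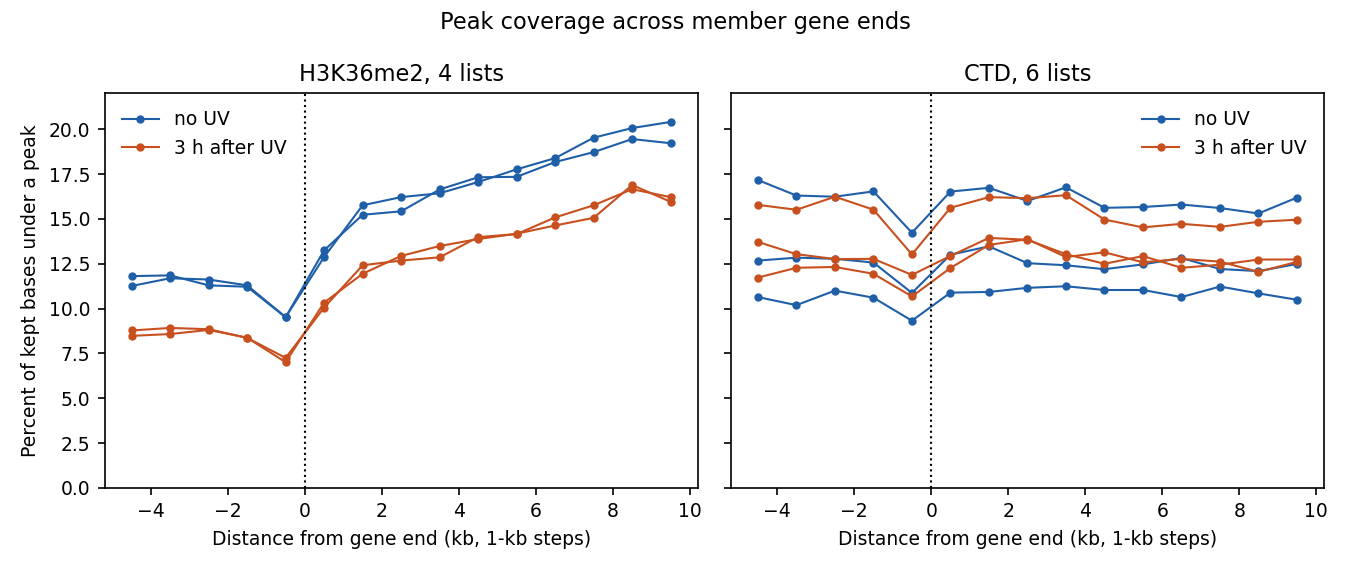
Percent of kept bases under a peak (y axis) in 1-kb steps from 5 kb before to 10 kb after the gene end (x axis, kb), one line per list, for H3K36me2 (left) and the CTD (right), coloured by condition. H3K36me2 was lowest in the last kilobase of the gene, between 7.01% and 9.52%, and rose to between 16.0% and 20.4% in the tenth kilobase of the flank, whereas the CTD lines stayed level except for the last kilobase of the gene.

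The steps of the 4 H3K36me2 lists were 0.64 and 0.60 without UV and 0.74 and 0.71 at 3 h, all above the 6 CTD lists, which ranged from −0.0055 to 0.12. The difference of 0.63 between the means passed an exact two-sided permutation test of 4 against 6 lists (p = 0.00952, the smallest these numbers allow). After Benjamini-Hochberg adjustment over the 17 tests of this kind made here, its adjusted p was 0.162 and was the lowest of the 17, so no difference of this family passed. Within the conditions the difference was 0.59 without UV and 0.68 at 3 h (exact p = 0.20 for each, the smallest that 2 against 3 lists allow). Among the 3350 members kept in full, which are the same in every step, the H3K36me2 step was 0.58, and it was 0.56 in steps with a G or C content of 35 to 45%. In the latter steps the CTD step was −0.0048.

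The change of H3K36me2 was gradual beyond the first kilobases. Without UV, the mean of the 2 lists was 11.5% in the first of the 5 upstream steps, 9.52% in the last kilobase of the gene, 13.1% in the first and 15.5% in the second kilobase of the flank, and 19.8% in the tenth. At 3 h the same steps held 8.63%, 7.13%, 10.2%, 12.2% and 16.1%. Between the second and the tenth kilobase of the flank the coverage increased 1.26- to 1.34-fold in the 4 lists. The members with kept sequence fell from 4778 to 3830 between these steps, so part of this rise is a change of genes. Among members kept in full, the mean rose less, from 16.9% to 20.6% without UV and from 14.0% to 16.8% at 3 h. The tenth kilobase stood above the level of all autosomes, which was 16.4% and 15.8% without UV and 14.4% and 14.8% at 3 h. In the CTD lists the tenth kilobase held 0.914 to 0.967 times the coverage of the second.

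The peaks themselves differed little between the steps. The median fold enrichment of peaks centred in a step, the ratio of ChIP to control given by the peak caller, lay between 1.76 and 1.88 in the H3K36me2 lists and between 1.71 and 1.83 in the CTD lists. The median width of H3K36me2 peaks averaged 616 ± 2.55 bp over the upstream steps and 645 ± 9.23 bp over the downstream steps without UV (SD, n = 2), and 545 ± 18.2 bp and 586 ± 14.0 bp at 3 h. CTD peaks had widths of 489 ± 67.1 bp and 489 ± 53.4 bp without UV and 498 ± 36.5 bp and 497 ± 30.9 bp at 3 h (SD, n = 3). Counted by their centres, H3K36me2 peaks rose from 122 ± 0.983 per Mbp before the end to 182 ± 2.84 per Mbp after it without UV and from 105 ± 0.478 to 166 ± 2.09 per Mbp at 3 h (SD, n = 2). For peak centres the log2 step was 0.62 ± 0.054 (SD, n = 4).

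Compared with 15 kb around the middle of the same genes, the gene end was poor in H3K36me2 and the flank was rich in it. The middle was covered to 14.2% and 14.4% without UV and to 11.8% and 11.9% at 3 h. The gene end lay below it by a log2 ratio of −0.43 ± 0.082 and the flank above it by 0.24 ± 0.030 (SD, n = 4), each in 4 of 4 lists (exact sign-flip test, p = 0.13 for both). The value for the flank was 0.12 in steps with a G or C content of 35 to 45% and 0.15 in members of 100 kb or more. For the CTD the corresponding values were 0.041 ± 0.13 and 0.082 ± 0.094 (SD, n = 6; exact p = 0.4375 and 0.0625). All of the CTD zones exceeded the level of the autosomes, which ranged from 9.63% to 12.0%, and for H3K36me2 this held only for the flank without UV.

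**Figure D2:**
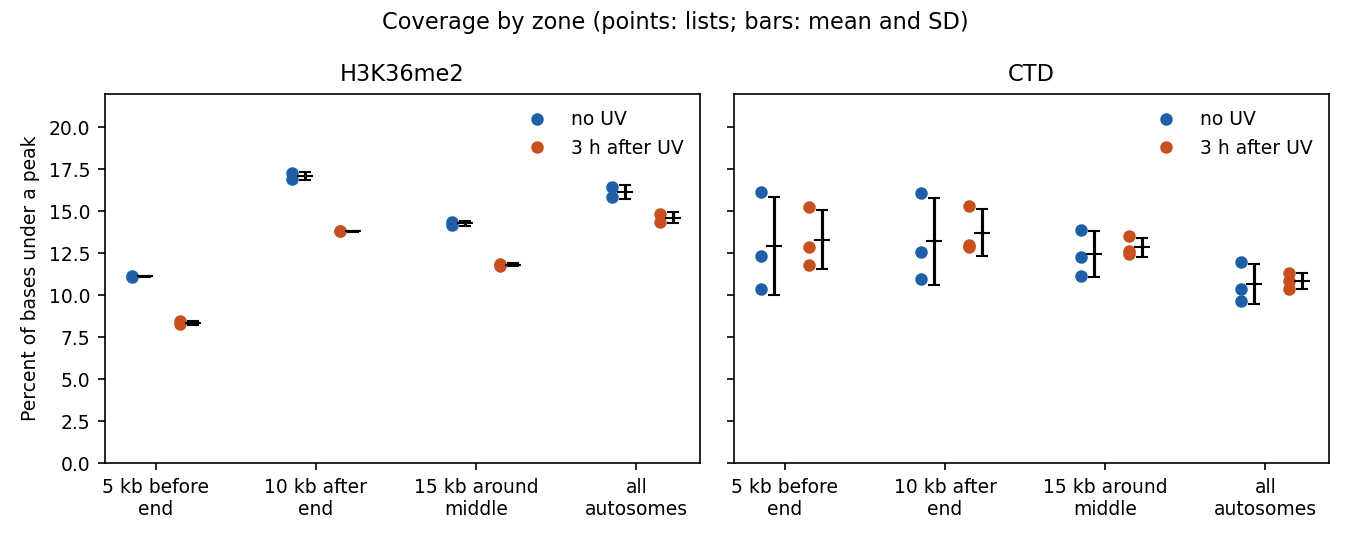
Percent of bases under a peak (y axis) in the 5 kb before the gene end, the 10 kb after it, the 15 kb around the middle of the same genes and all autosomes (x axis), for H3K36me2 and the CTD. Points are lists and bars give the mean and SD of a condition. H3K36me2 was higher in the flank than at the gene end in all 4 lists, and the 6 CTD lists spread more widely than they differed between zones.

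Both assays had their lowest coverage at the gene end itself. The last kilobase of the gene was the lowest of the 15 steps in all 10 lists. Relative to the mean of the steps on either side, the coverage there was lower by a log2 ratio of −0.34 to −0.42 in the H3K36me2 lists and of −0.11 to −0.26 in the CTD lists. In 100-bp bins, chosen after the profile in 1-kb steps had been seen, the lowest bin was the last one before the end in 9 of 10 lists and the one before that in CTD replicate 3 without UV. The coverage in the lowest bin was 7.19% and 7.28% for H3K36me2 without UV and 5.32% and 5.23% at 3 h, against 8.36% to 11.3% between 2 and 1 kb before the end. For the CTD it ranged from 7.90% to 11.5%, against 10.6% to 16.5%. H3K36me2 was back at its upstream level in the bin that starts 200 bp after the end in all 4 lists and continued to rise. The CTD lists were back at 200 or 300 bp.

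Base composition changed at the same place. The G or C content was 43.1% in the step before the last kilobase, 40.9% in the last kilobase and 43.8% in the first kilobase of the flank. In the last 100 bp it was 33.2%. The share of TT or AA dinucleotides, the sites where UV-C most readily joins neighbouring thymines, was 20.1% in the last kilobase against 18.6% before and 17.9% after it, and 25.9% in the last 100 bp. The part of base composition in the dip was not tested. Members with a poly(A) signal in their last 50 bases had 7.83 ± 1.35% of their last kilobase under H3K36me2 peaks, and members without one had 10.1 ± 1.52% (SD, n = 4). For the CTD these values were 11.4 ± 1.74% and 12.5 ± 2.0% (SD, n = 6).

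**Figure D3:**
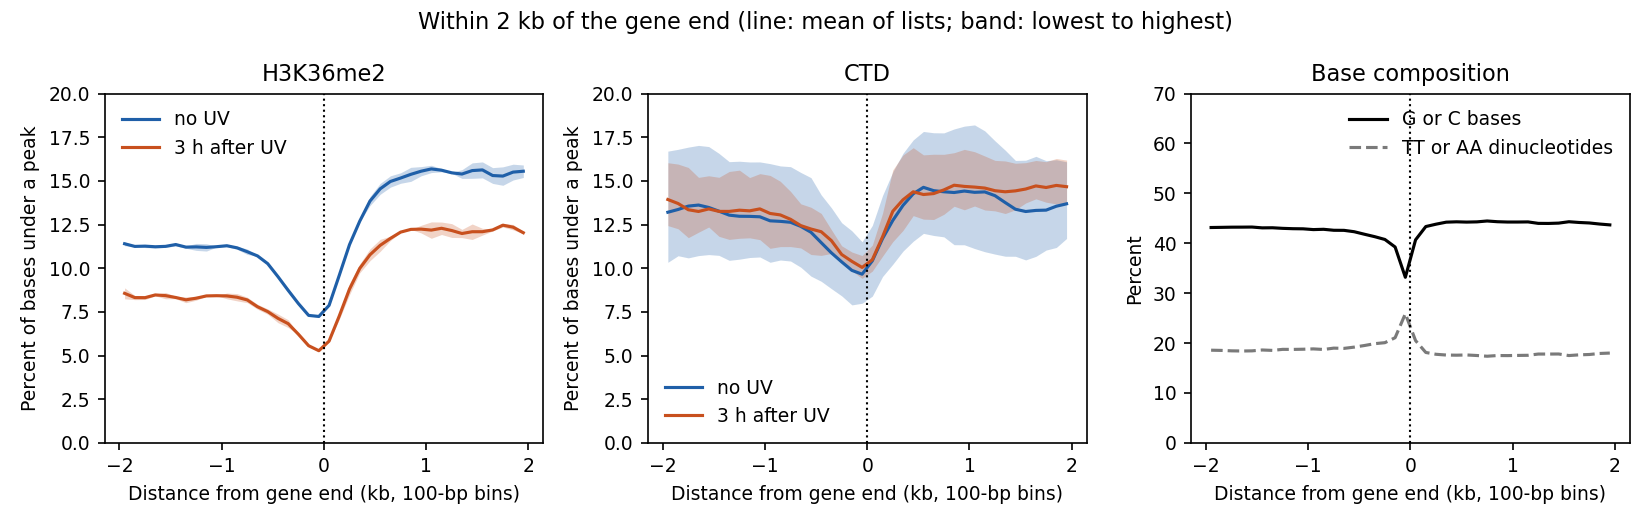
Percent of bases under an H3K36me2 peak (left) or a CTD peak (middle) and base composition (right) in 100-bp bins within 2 kb of the gene end (x axis, kb). Lines are means of the lists of a condition and bands span the lowest to the highest list. Coverage was lowest in the last 100 to 200 bp of the gene, where the G or C content fell to 33.2%.

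The step differed between members. The promoters of 3695 of the 5493 members were rich in CpG (G or C content of at least 50% and observed over expected CpG of at least 0.6 within 500 bp of the start), a class that holds most housekeeping genes. Their ends were covered less by H3K36me2, with 9.86 ± 0.160% without UV and 7.03 ± 0.0633% at 3 h, than those of the 1798 other members, with 13.8 ± 0.20% and 11.1 ± 0.536% (SD, n = 2). In the flank the classes were closer, with 16.5 ± 0.191% against 18.2 ± 0.358% without UV and 12.9 ± 0.0585% against 15.6 ± 0.214% at 3 h. The H3K36me2 step was 0.81 ± 0.080 in the CpG-rich class and 0.44 ± 0.055 in the other (SD, n = 4). The difference of 0.37 ± 0.048 was positive in 4 of 4 lists (exact sign-flip test, p = 0.13). For the CTD the difference was 0.095 ± 0.045 and positive in 6 of 6 lists (exact p = 0.031, adjusted p = 0.177 over the 17 tests). It was 0.0054 (exact p = 0.94) in steps with a G or C content of 35 to 45%, and it stayed between 0.083 and 0.11 when any one of the 6 lists was left out.

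H3K36me2 in the middle of the gene separated the members further. This split uses the same lists and is given as a description with no test. In 862 members with kept sequence the middle 15 kb held no H3K36me2 peak in any list. Their ends were almost free of the mark, with 2.21 ± 0.12% of the bases covered without UV and 1.78 ± 0.0797% at 3 h, and their flanks reached 8.37 ± 0.0987% and 6.24 ± 0.162% (SD, n = 2). Within the flank of these genes the mean of the 4 lists rose from 3.22% in the first kilobase (772 members) to 11.4% in the ninth (594 members). In 3002 members whose middle held a peak in every list, the gene end was covered to 15.5 ± 0.0158% and 12.0 ± 0.116% and the flank to 21.6 ± 0.511% and 18.0 ± 0.0422%. The step was 1.87 ± 0.089 in the first set and 0.53 ± 0.068 in the second (SD, n = 4). The CTD covered 11.2 ± 2.19% and 13.4 ± 3.12% of the gene ends of the 2 sets without UV and 11.7 ± 1.14% and 13.6 ± 1.85% at 3 h (SD, n = 3).

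**Figure D4:**
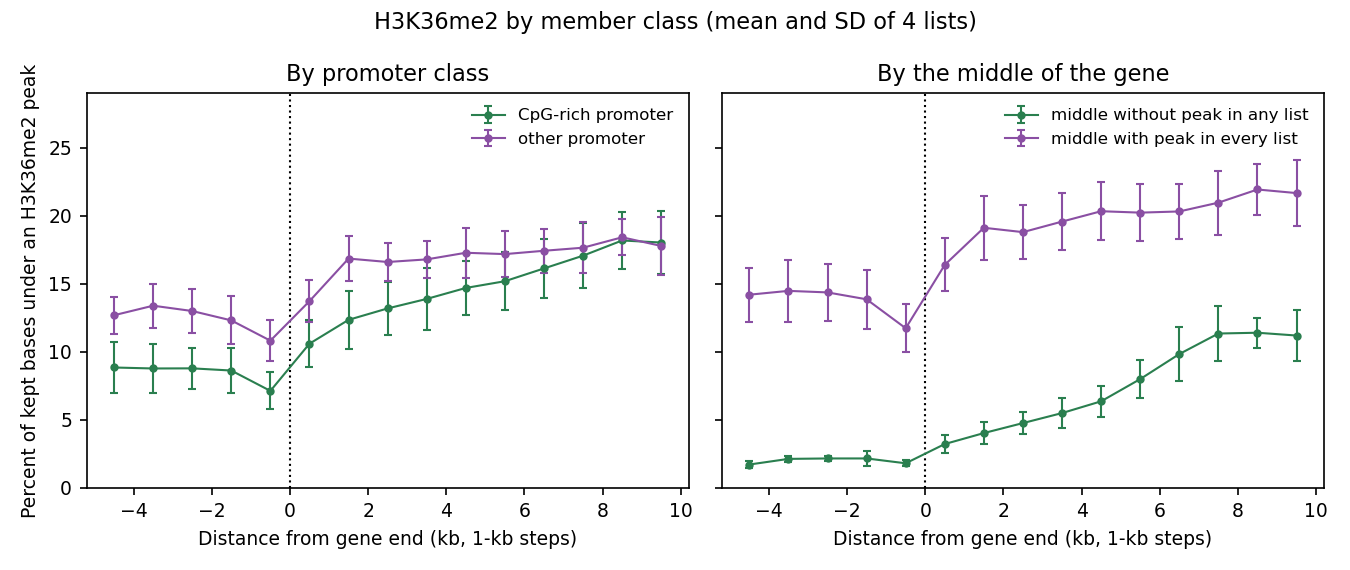
Percent of kept bases under an H3K36me2 peak (y axis) by 1-kb step from the gene end (x axis, kb), for members with CpG-rich and other promoters (left) and for members whose middle had no H3K36me2 peak in any list or a peak in every list (right). Points and bars are the mean and SD of the 4 lists. The promoter classes converged towards the tenth kilobase, and genes without the mark in their middle stayed near 2% up to their end.

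The members were also divided by the distance to the next gene. No other protein-coding gene lay within 50 kb downstream of 1741 members. Their H3K36me2 step was 0.59 ± 0.045, against 0.69 ± 0.067 for the 3752 others (SD, n = 4), a difference of −0.097 ± 0.043 (exact sign-flip test, p = 0.13). The size of this difference depended on the setting. It was 0.026 among members kept in full, −0.26 in steps with a G or C content of 35 to 45%, and −0.17 and −0.45 with peaks of −log10 p of at least 2 and at least 3. For the CTD the step was 0.14 ± 0.044 and 0.026 ± 0.063 (SD, n = 6), a difference of 0.11 ± 0.077 in the same direction in 6 of 6 lists (exact p = 0.031, adjusted p = 0.177 over the 17 tests). It was 0.069 (exact p = 0.16) among members kept in full, and it stayed between 0.094 and 0.13 when any one list was left out. Where the next gene lay within 50 kb, its orientation mattered little for H3K36me2, with steps of 0.65 ± 0.048 for 1674 members in tandem with it and 0.64 ± 0.097 for 1463 members that converge with it.

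Among the members, longer genes had more H3K36me2 on both sides of the end. Genes under 50 kb, which are no members, did not follow this order before the end, with 12.2% without UV. Without UV the H3K36me2 coverage before the end was 10.0% in members of 50 to 100 kb, 11.5% in those of 100 to 200 kb and 13.1% in those of 200 to 500 kb, and 16.1%, 17% and 19.4% after it. The CTD means without UV ran the other way and were 13.6%, 12.6% and 11.9% before the end and 13.7%, 13.2% and 12.1% after it, with SDs of 1.75% to 3.29% (n = 3) that exceed these differences in level. The H3K36me2 steps of these classes were 0.74 ± 0.070, 0.62 ± 0.066 and 0.61 ± 0.058 (SD, n = 4). In the 11238 autosomal genes under 50 kb with kept sequence the H3K36me2 step was 0.44 ± 0.16, from 0.25 to 0.59 over lists. In the 289 over 500 kb it was 0.38 ± 0.058, from 0.30 to 0.43. The mean H3K36me2 step was positive on all 22 autosomes, from 0.29 on chromosome 22 to 0.98 on chromosome 21. The mean CTD step was positive on 16 of 22, from −0.22 on chromosome 19 to 0.32 on chromosome 13.

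Single members varied more than the classes. Of the 3350 stretches kept in full, the median over the H3K36me2 lists was 9.37% covered, with quartiles at 2.71% and 21.2%, and 439 had a median of 0. For the CTD the median was 12.3%, with quartiles at 7.14% and 16.8%, and 113 had a median of 0. H3K36me2 was higher in the flank than before the end in 1073 members (32.0%) in every list and lower in 273 (8.15%). For the CTD these numbers were 157 (4.69%) and 37 (1.10%) over 6 lists. The flank window is the longer one and is less often empty: 52.8% to 59.3% of these members had no H3K36me2 peak before the end and 19.9% to 25.9% had none after it, against 30.3% to 33.8% and 11.7% to 13.6% for the CTD. Across the 3350 members the levels of the assays had a Spearman rho of 0.22, and the CTD level had a rho of 0.50 with the G or C content of the stretch, against 0.092 for H3K36me2. These correlations are across genes of the same lists and are descriptions.

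The most covered members carried H3K36me2 over nearly the whole stretch. The end of DPF3 was covered to 94.5% and 89.7% without UV and to 84.6% and 85.9% at 3 h. That of SYNDIG1, a gene for a synaptic membrane protein, was covered to 91.0% and 95.0% without UV and to 82.4% and 80.0% at 3 h. For ARMC9, a ciliary protein, the values were 87.7% and 94.5% without UV and 83.0% and 80.0% at 3 h. In these 3 genes every list at 3 h lay below both lists without UV, but none passed limma (adjusted p = 0.53, 0.30 and 0.41). TG, the thyroglobulin gene, had 83.8% and 85.5% without UV and 81.7% and 88.4% at 3 h, so that the conditions overlapped. Its CTD coverage was 4.07%, 10.6% and 12.8% without UV and 27.1%, 42.6% and 28.0% at 3 h, without overlap and not called (limma, adjusted p = 0.999). COBL had 88.4% and 86.5% without UV and 72.9% and 72.0% at 3 h (limma, adjusted p = 0.21).

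CTD coverage was lower at its maximum and less even between replicates. SLC6A3 had 42.3%, 16.4% and 6.72% of its stretch covered without UV and 40.7%, 29.3% and 45.4% at 3 h. SLC6A11, a GABA transporter gene, had 34.7%, 28.1% and 21.5% without UV and 37.6%, 41.0% and 33.7% at 3 h. In SLC6A11 only the first of the lists without UV reached the range at 3 h. For the gene listed only as ENSG00000235007 the values were 41.9%, 21.9% and 22.2% without UV and 36.7%, 32.3% and 34.7% at 3 h. TRAPPC12, a subunit of a vesicle tethering complex, ranged from 13.4% to 40.9% without UV and from 4.55% to 49.2% at 3 h, and MAP2K5 from 5.27% to 48.2% and from 1.76% to 45.9%. In these 5 genes the conditions overlapped.

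The second comparison asked what changed 3 h after UV. H3K36me2 coverage was lower at 3 h on both sides of the gene end. In the 5 kb before the end it was 11.1 ± 0.0440% without UV and 8.35 ± 0.130% at 3 h, a log2 change of −0.41, and in the 10 kb after the end it was 17.1 ± 0.247% and 13.8 ± 0.0326%, a change of −0.31 (SD, n = 2 each). The conditions did not overlap in either zone, and the exact permutation test gave p = 0.33, the smallest that 2 against 2 lists allow. Part of this was common to the list as a whole: autosomal coverage went from 16.1 ± 0.435% to 14.6 ± 0.331%, and relative to it the changes were −0.27 and −0.17. The step was 0.10 larger at 3 h, again without overlap (exact p = 0.33), but with peaks of −log10 p of at least 2 the difference was 0.0052 (exact p = 1.0), and among members kept in full it was 0.051. With all peaks, CTD coverage did not differ beyond its spread, with 12.9 ± 2.92% and 13.3 ± 1.76% before the end (log2 change of 0.054, exact p = 0.90) and 13.2 ± 2.60% and 13.7 ± 1.40% after it (0.069, exact p = 0.80), and neither did its step (difference of 0.015, exact p = 0.70; SD, n = 3 each). Without CTD replicate 1 of the untreated cells the changes were 0.22 and 0.22, without replicate 3 of the untreated cells they were −0.095 and −0.057, and without replicate 3 at 3 h they were −0.048 and −0.014. The CTD result depended on which peaks were counted. With only peaks that overlapped by 50% between replicates, CTD coverage was higher at 3 h in every list, by 0.33 before and 0.37 after the end on the log2 scale (exact permutation test, p = 0.10 for both, the smallest that 3 against 3 lists allow). Over all autosomes these peaks covered 2.76%, 2.87% and 2.43% without UV and 3.26%, 3.31% and 3.47% at 3 h, so that most of this rise was common to the lists as a whole. The empty-vector controls were pooled at 3 h and kept apart by replicate without UV. In the CTD lists UV and the handling of the control therefore cannot be told apart. The part of the pooled control in the overlap between replicates was not tested.

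The UV change of H3K36me2 ran with the base composition of the stretch. Members were divided into 5 groups of about 1100 by the G or C content of their kept sequence, after the changes had been seen. In the lowest group, below 38.3%, the gene end was covered to 6.13% and 6.10% without UV and to 6.98% and 7.18% at 3 h, so that both lists at 3 h were higher. In the highest group, above 49.3%, it was covered to 13.9% and 17.3% without UV and to 6.63% and 7.13% at 3 h. The log2 changes from the lowest to the highest group were 0.21, −0.028, −0.15, −0.63 and −1.17 before the end and 0.11, −0.035, −0.24, −0.50 and −0.88 after it. In the flank of the highest group the coverage was 20.2% and 23.4% without UV and 12.1% and 11.7% at 3 h. In steps with a G or C content of 35 to 45% the changes were −0.0072 before the end and −0.011 after it, and the change of the step was −0.0042. The part of base composition in the UV change was not tested, and neither was a difference between the libraries in their bias for G or C content. In the CTD lists the spread between replicates also ran with composition: in the highest group the gene end was covered to 32.1%, 17.1% and 10.6% without UV and to 17.3%, 13.9% and 29.9% at 3 h. The CTD step also differed between the groups. From the lowest to the highest G or C content it was 0.32, 0.20, 0.075, 0.020 and −0.095, so that the mean over all members combines steps of opposite sign. In the lowest group it was positive in 6 of 6 lists, from 0.15 to 0.51, and in the highest it was negative in 5 of 6, from −0.22 to 0.14. The H3K36me2 step was 0.84, 0.80, 0.73, 0.51 and 0.64 in the same groups. Leaving out the most GC-rich CTD list of each condition, replicate 1 without UV and replicate 3 at 3 h, gave a CTD step of 0.061 and UV changes of 0.12 and 0.14.

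**Figure D5:**
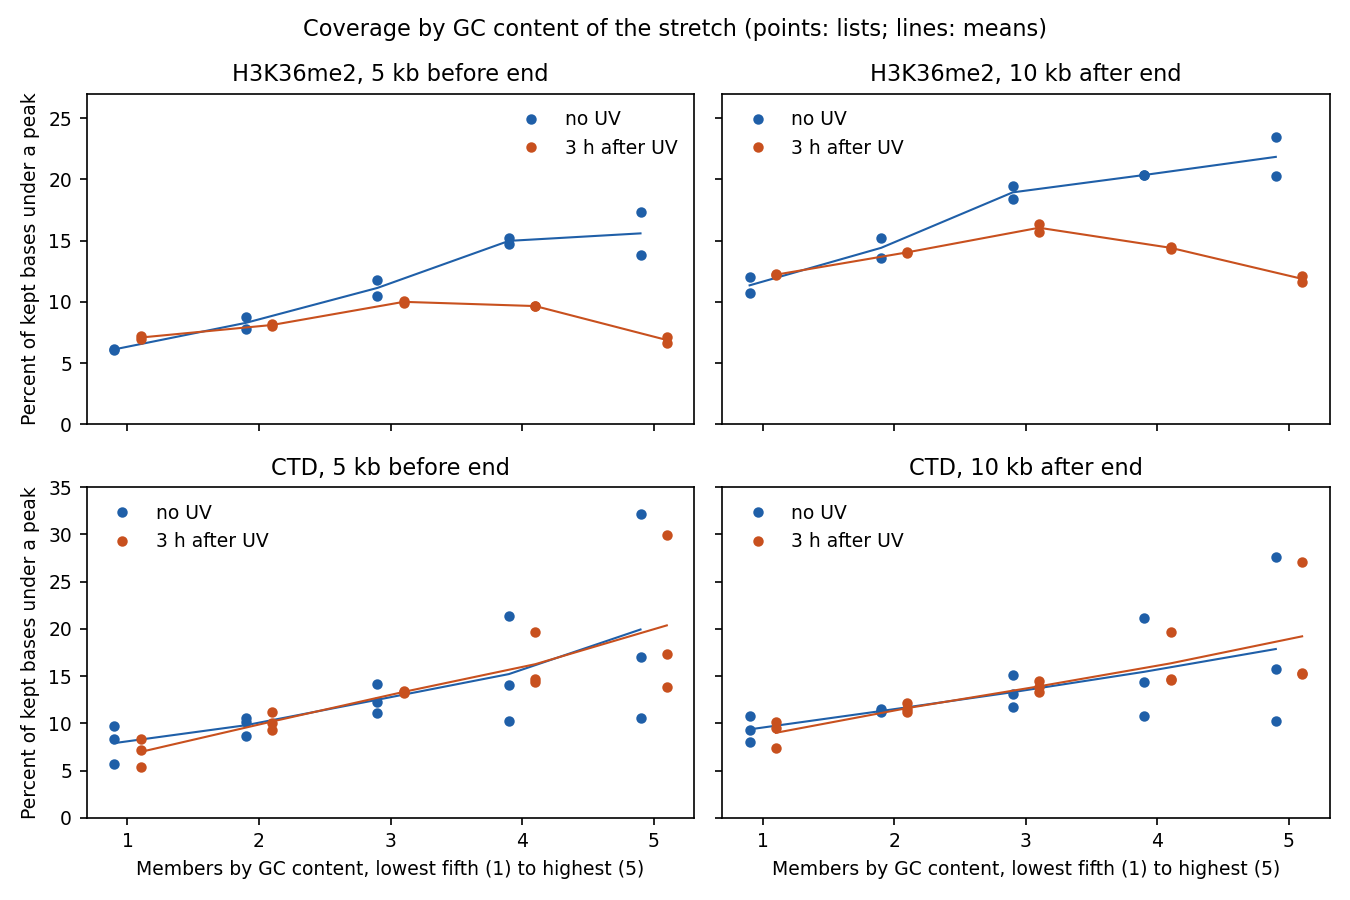
Percent of kept bases under a peak (y axis) in members divided into 5 groups by the G or C content of their stretch (x axis), for H3K36me2 (top) and the CTD (bottom), before and after the gene end. Points are lists and lines are means of a condition. H3K36me2 was slightly higher at 3 h in the lowest group and lower at 3 h in the highest, whereas the CTD lists spread from 10.6% to 32.1% before the end in the highest group.

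The UV change was also tested stretch by stretch, on the percent covered of 12365 autosomal gene ends of any gene length with at least 8 kb kept (limma, Benjamini-Hochberg adjustment over all stretches whose values varied). For H3K36me2, 7 of 10802 tested stretches were called lower at 3 h (0.0648%) and none higher (0%), with 2007 at an unadjusted p under 0.05. Of 3980 members tested, 4 were called lower (0.101%) and 585 had an unadjusted p under 0.05, of which 527 were lower at 3 h. All 4 were called at an adjusted p of 0.048, at the edge of the threshold, and leaving out replicate 2 without UV or either list at 3 h left no call. Without replicate 1 of the untreated cells 353 members were called lower and 4 higher, with 1224 and 8 of all stretches. A condition with 1 list left is assumed to vary like the other, so these counts take their spread from 2 lists. With all 4 lists and a replicate block, 180 of 3980 members tested were called lower and 4 higher, against 707 and 15 of 10802 stretches. The block pairs same-numbered replicates, and the replicate numbers were not taken to pair the samples. Among stretches with a mean of at least 5% covered, 79 of 2763 members were called lower and 0 higher, against 286 and 3 of 7361. With only peaks that overlapped by 1 bp between replicates, 720 of 3113 members were called lower and 245 higher. Over all stretches these numbers were 2260 and 576 of 8353. In each of these settings the share called lower was smaller in the members than in all stretches. For the CTD, 0 of 11991 stretches were called in either direction (0% lower and 0% higher; limma, 444 at an unadjusted p under 0.05), and 174 of 4353 members tested had an unadjusted p under 0.05.

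After scaling to the autosomes or on a log2 scale no stretch was called (limma, lowest adjusted p = 0.096 and 0.16). The 4 called members had much lower H3K36me2 coverage at 3 h. TBC1D16, a regulator of Rab GTPases, had 65.9% and 73.3% of its stretch covered without UV and 20.4% and 13.7% at 3 h, a difference of −52.5 ± 6.40 percentage points (SE; limma, adjusted p = 0.048). In TBC1D16 the flank went from 57.3% and 59.9% to 3.92% and 4.67%. CCDC57, which encodes a coiled-coil protein, had 56.9% and 65.2% without UV and 5.89% and 7.08% at 3 h, a difference of −54.5 ± 6.15. BAHCC1, which encodes a chromatin protein with a BAH domain, had 58.2% and 55.8% without UV and 3.6% and 12.9% at 3 h, a difference of −48.7 ± 6.23. PRDM11, a member of the PR-domain family, had 57.2% and 63.3% without UV and 8.07% and 13.8% at 3 h, a difference of −49.3 ± 6.18. In none of the 4 did the conditions overlap. Their stretches had a G or C content of 58.8% for TBC1D16, 63.7% for CCDC57, 60.01% for BAHCC1 and 49.3% for PRDM11, and their CTD differences were between −8.04 and 6.69 percentage points, within the spread of the replicates.

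Counted by non-overlap, 1309 of 4412 members (29.7%) had both H3K36me2 lists at 3 h below both without UV, against 32.5% of the gene ends of all lengths. In the other direction there were 420 members (9.52%), against 7.68% of all gene ends. For the CTD 179 members (4.06%) were lower in all lists at 3 h and 218 (4.94%) higher, against 3.39% and 4.64% of all gene ends. The shares of the members thus lay near those of gene ends in general. The CTD members with the lowest p without overlap, none of which was called (limma, adjusted p = 0.999), included GOLGA3 and PRH1 among those lower and MROH8, DPP4 and MBNL1 among those higher. The end of GOLGA3, a golgin gene, was covered to 58.2%, 28.9% and 32.6% without UV and to 14.6%, 1.24% and 6.86% at 3 h. That of MROH8 was covered to 0%, 0% and 1.17% without UV and to 34.9%, 22.3% and 5.62% at 3 h.

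ASH1L is itself a member, on the minus strand of chromosome 1. The CTD construct was cloned from coding DNA and holds no intron, untranslated sequence or flank, and the part of plasmid DNA in the CTD coverage of the last coding exons was not tested. No H3K36me2 peak lay in the 9153 bp kept of its stretch, in any of the 4 lists. The CTD covered 35.5%, 26.5% and 21.9% of the 5 kb before its end without UV and 23.8%, 36.5% and 33.6% at 3 h, above the median of 5.86% to 8.84% over the members kept in full in the same zone. After the end of ASH1L the values were 12.1%, 6.38% and 0% without UV and 0%, 0% and 43.3% at 3 h. Without ASH1L the CTD step was 0.042, as with it.

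Of 3 gene lists related to the regions and to the treatment, no member tested was called in either assay by limma. For H3K36me2 7, 6 and 9 members of the lists were tested and for the CTD 12, 12 and 11, since the others had under 8 kb kept or no peak in any list. Over all gene ends tested 0.0648% were called lower for H3K36me2 and 0% for the CTD. By non-overlap, 4 of 12, 4 of 12 and 1 of 11 list members with at least 8 kb kept were lower in H3K36me2 at 3 h. This compares with 29.7% of all such members and 32.5% of all gene ends. The numbers higher at 3 h were 1, 0 and 0, against 9.52% and 7.68%. Among factors of 3′-end processing and termination, 16 of 40 genes were members with kept sequence, and their median H3K36me2 coverage was 0.352%, against 5.85% over all members with kept sequence. In 7 of the 16 no H3K36me2 peak lay in the stretch in any list. Among these were XRN2, the termination exonuclease, PAPOLA, the poly(A) polymerase, and CDC73, of the PAF1 complex. WDR33, which recognises the poly(A) signal, had 52.7% without UV and 34.4% at 3 h, and RTF1, also of the PAF1 complex, had 38.0% and 29%. In WDR33 and RTF1 both lists at 3 h lay below both without UV. The CTD median of this list was 10.0%, against 12.4% over all members with kept sequence.

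Among H3K36 methyltransferases, demethylases and readers, 15 of 25 genes were members with kept sequence. The H3K36me2 median was 0, and NSD1 and NSD2, which place the mark, had no H3K36me2 peak in the 5984 and 5509 bp kept of their stretches. IWS1, a partner of the elongation factor SPT6, had 49.6% without UV and 23.7% at 3 h, and DNMT3A, a DNA methyltransferase that binds the mark, had 18.0% and 4.05%, both without overlap. Of the demethylases, KDM4B had 6.84% and 15.1% without UV and 0% and 2.91% at 3 h, and KDM2A had a mean of 23.3% without UV and 20.9% at 3 h, both without overlap. In KDM4C, with means of 16.0% and 16.6%, the conditions overlapped. Lower without overlap were 4 of 12 genes of this list with at least 8 kb kept, near the 29.7% of all such members. The CTD median was 15.0%, with NSD2 highest over this list at a median of 30.1%.

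Among genes of nucleotide excision repair and the UV response, 16 of 47 were members with kept sequence, again with an H3K36me2 median of 0. The transcription-coupled repair factors ERCC6 and ERCC8 had 3.12% and 5.31% without UV and 3.09% and 5.07% at 3 h, and UVSSA had none. POLD3, a subunit of DNA polymerase delta, had 49.7% without UV and 24.7% at 3 h, without overlap. It was the only one of 11 on this list with at least 8 kb kept, against 29.7% of all such members. The CTD median was 12.5%, against 12.4% over all members with kept sequence. LIG1, DNA ligase 1, was highest over this list at a CTD median of 33.5%, with means of 30.6% without UV and 34.0% at 3 h.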

How the data were processed

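ChIP-seq peaks of H3K36me2 and of the Flag-tagged ASH1L-CTD were analysed in 10 lists, assigned to condition and replicate by the sample labels. According to the methods and the submitters' processing notes, the authors trimmed reads (Trim Galore 0.6.5), aligned them to hg38 (BWA 0.7.17-r1188), dropped blacklisted regions, duplicates and alignments under mapping quality 30, and ran MACS2 2.2.7.1 in broad mode at p = 0.01. Removal of repeats by mapping quality and the fixed list length both shape coverage, so values are relative within a list. The deposited fold enrichment is the ratio of ChIP to control, and the deposited −log10 p-value is from the same calling. Each list held 500000 peaks in decreasing −log10 p, which was tested on the lists. Of the 491864 to 493590 autosomal peaks per list, 201955 to 222228 had a −log10 p of 2 or more in the H3K36me2 lists. In the CTD lists 29079 to 41484 did, so that most listed CTD peaks lie below that value. The main results use all listed peaks. The X chromosome was left out. The deposited lists carry no read depth.

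The gene end was the outermost annotated end of the gene over its transcripts, so that shorter isoforms end inside the upstream zone. Coverage is the sum of bases under any peak over the sum of kept bases, and the autosomal total leaves out assembly gaps. Stretches of neighbouring members shared 2.45% of their 67.2 Mbp. Lists were compared by exact sign-flip and exact permutation tests, two-sided, and single stretches by limma 3.58.1 (moderated test with trend, R 4.3.3) on percent covered. Called means an adjusted p under 0.05. Members, lists and tests were chosen with earlier results of these data known. Genes were named by a rule: the 5 members per assay with the highest median coverage among stretches kept in full (at the lowest value their number only), the called members or, with none called, the 3 in each direction with the lowest p and no overlap, the members of the gene lists, and ASH1L. Some genes and sequences that this rule names are not reported here. The limma step was tested on simulated data. Alternatives covered peak thresholds, peaks shared between replicates, peak centres, member choice, base composition, a replicate block and leaving out each list. Tables were handled in pandas 2.3.3 and NumPy 2.4.6 under Python 3.11.15, tests in SciPy 1.17.1 and plots in matplotlib 3.10.9. The input and empty-vector libraries entered only as controls in the authors' peak calling.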

Additional observations from a re-analysis of the deposited data

How the results depend on the processing

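The H3K36me2 step kept its direction in all 14 alternatives, with values of 0.56 to 0.72, and so did its difference from the CTD (0.49 to 1.62 in 21), its difference between promoter classes (0.26 to 0.40 in 15) and the UV change of H3K36me2 upstream (−0.64 to −0.0072 in 16) and downstream (−0.50 to −0.011 in 16). The smallest UV changes were those in steps with a G or C content of 35 to 45%. There the conditions overlapped, and only the sign of the mean change was kept. In those steps the UV change of the H3K36me2 step (−0.0042), the CTD step (−0.0048) and the CTD flank against the middle of the genes (−0.0038) also reversed, and the CTD differences fell to 0.0054 between promoter classes and 0.065 between free and other flanks. The cause of these changes was not tested.

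The CTD results were small and moved with the setting. With peaks of −log10 p of 2 or more, the CTD step was 0.075, its UV change −0.022, its upstream part against the middle −0.027, and its class differences 0.15 (promoter) and 0.10 (free flank), the latter 2 no longer past 0.05. With −log10 p of 3 or more, which left 13 to 30 CTD peaks in the members, the step was −0.97, the upstream part against the middle 0.81, the flank against the middle −0.16 and the free-flank difference 1.43, and the promoter difference could not be computed. With peaks shared by 1 bp between replicates, the flank against the middle was 0.11 and the free-flank difference 0.14. With peaks shared by 50% these were 0.13 and 0.15, the upstream part against the middle was 0.085, and the CTD UV changes were 0.33 upstream and 0.37 downstream, against 0.17 and 0.20 with 1 bp. By peak centres the CTD step was 0.055 and the flank against the middle 0.063. In members of 100 kb or more, the UV change of the CTD step was −0.017 and the free-flank difference 0.13. In members kept in full, the CTD step was 0.093, the free-flank difference 0.069 for the CTD and 0.026 for H3K36me2, which reversed. Outside every other annotated gene the free-flank difference of the CTD was 0.12, and with 100 kb in place of 50 kb it was 0.055. With the stricter promoter class the CTD difference was 0.071. With the 2 CTD lists of most GC-rich coverage left out, an alternative added after seeing the data, the upstream part against the middle was −0.037, and the class differences were 0.097 and 0.069.

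Leaving out each list in turn gave −0.023 to 0.038 for the UV change of the CTD step, 0.083 to 0.11 and 0.094 to 0.13 for its class differences, and −0.095 to 0.22 and −0.057 to 0.22 for the CTD UV change upstream and downstream. For H3K36me2, 2 lists against 1 give UV changes with no permutation test, and limma then takes its spread from the condition with 2 lists. The calls of limma for H3K36me2 depended most on the setting. Lower stretches numbered 707 with a replicate block, 286 with a mean of at least 5% covered, 2260 with shared peaks, 0 after scaling to the autosomes or on a log2 scale, and 0 to 1224 with 1 list left out. Higher stretches numbered 15, 3, 576, 0 and 0 to 8. No CTD stretch was called in any setting. Same-numbered replicates did not deviate together (correlations of −0.0027 for H3K36me2 and −0.17, 0.049 and −0.28 for the CTD), so the numbers were not taken to pair the samples. In the replicate block the UV change of the step was 0.10 for H3K36me2 and 0.015 for the CTD, as without it (exact p = 0.50 and 0.75). Low numbers of lists limit the exact tests between conditions, and the lists carry no depth from which counting error could be had.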

Other observations

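Of the 4 members whose H3K36me2 coverage was called lower at 3 h, the genes TBC1D16, BAHCC1 and CCDC57 lie within chr17:79932343-82212878, a region chosen after the calls were seen. The region is bounded by called genes, so the values of these 3 are no support for it. It holds 3 other members with at least 8 kb kept, which had little H3K36me2 in either condition. The stretch of RNF213 held no H3K36me2 peak in any list. That of RPTOR was covered to 0% and 3.33% without UV and to 0% in both lists at 3 h, and that of SLC38A10 to 2.24% and 3.8% without UV and to 0% in both lists at 3 h. The median G or C content of the stretches was 59.4% in the region, 46.6% in the other members of the chromosome and 42.2% over all members.

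Across the 3350 members kept in full, the difference of H3K36me2 coverage between 3 h and no UV had a Spearman rho of −0.47 with the G or C content of the stretch, and that of the CTD had a rho of 0.087. The points share the same lists, so these values are descriptions.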
